A study of Mus musculus with 7 samples.

Results

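The miRNAs described here, 5 in number, are mmu-miR-149-5p, mmu-miR-328-3p, mmu-miR-501-3p, mmu-miR-296-5p and mmu-miR-296-3p, the last 2 being the arms of 1 hairpin. They were measured in 7 small-RNA libraries from mouse embryonic stem cells, and are called the members below, without the prefix mmu. They were chosen by name, from outside the imprinted Dlk1-Dio3 cluster, for strong falls in the K566A mutant of Argonaute 2 (Ago2) or in another mutant. They are 5 of the 950 miRNAs in the table and come from 4 hairpins. Each maps to 1 locus, and none overlaps another row. The choice used the ratios of mutant to wild type, so those ratios are given as a description, with no test.

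Flag-tagged Ago2 was collected with an anti-Flag antibody from cells of an Ago-null background, and the bound small RNAs were sequenced. The tested proteins were Ago2 K566A, Ago2 Q548A, Ago2 R792A_C793A, Ago2 GKT_GKGT and Ago2 PGKTP_AAAAA. They were set against wild-type Ago2, and wild type against a control labelled empty. All were grown with leukemia inhibitory factor and serum. There was 1 library per group, and the sources used here do not say how many clones or cultures stand behind each. No difference below therefore has a replicate check: each compares 2 libraries, and its 95% interval covers counting error only.

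A miRNA hairpin yields a duplex with a 5p and a 3p arm, of which Argonaute keeps mostly 1 as its guide. The MID domain holds the guide's 5' end, and a loop in it faces the first base. K566 and Q548 are residues of that domain. GKT_GKGT and PGKTP_AAAAA alter its loop, by their labels, and R792A_C793A alters the PIWI domain, which contacts the guide as well. The title of the series asks whether Argonaute itself drives this asymmetry. Read counts carry no trace of the mutations, so they do not check the genotypes.

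The sequences of the members are shown because first base, seed and GC content (the share of G and C) are compared below. RefSeq (GRCm38.p6) holds 4 of the 5. Capitals mark the seed, bases 2 to 8, with which a guide finds its targets.
miR-149-5p: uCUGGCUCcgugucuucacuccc
miR-501-3p: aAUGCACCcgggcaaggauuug
miR-296-5p: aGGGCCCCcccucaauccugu
miR-296-3p: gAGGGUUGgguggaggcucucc

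The first bases are U in miR-149-5p, A in miR-501-3p and miR-296-5p, and G in miR-296-3p. No seed is shared among these 4. GC content was 60.9% in miR-149-5p, 54.5% in miR-501-3p, 66.7% in miR-296-5p and 68.2% in miR-296-3p, against a median of 47.8% over the 277 tested miRNAs with a sequence. As much GC as in miR-296-5p was found in 6.50% of those 277, and as much as in miR-501-3p in 36.5%. Positions are as deposited, in build mm9. miR-149-5p is at chr1:94746958-94746980 and its gene lies in an intron of Gpc1, which encodes a glypican. miR-328-3p is at chr8:107832279-107832300, and its gene lies opposite an exon of Elmo3. miR-501-3p is at chrX:6818396-6818417 in an intron of Clcn5, a chloride transporter gene that hosts several miRNAs. miR-296-5p is at chr2:174092594-174092614 and miR-296-3p at chr2:174092559-174092580, in the imprinted Gnas region. The host genes were read by name from GENCODE M21. In mouse embryonic stem cells miR-296 is known as one of the miRNAs that target Nanog during differentiation. miR-501-3p is known from rat neurons, where it targets an AMPA receptor subunit.

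The libraries held 14914048 counts in K566A, 24921544 to 94700428 in the other 4 mutants, 94842507 in wild type and 33461 in the empty control. K566A stood apart: miR-292-5p, the most abundant miRNA, took 21.7% of its counts, against 63.7% in wild type, and the median log2 ratio of the 337 tested miRNAs (mean of at least 10 counts per 1000000, CPM, in the 6 Ago2 libraries) was 0.92. The 9 stem cell markers of the miR-290 and miR-302 clusters summed to between 60221 and 374148 CPM in the Ago2 libraries, all well above the markers of other cell types. That sum was 374148 CPM in K566A and 123233 CPM in wild type. The 4 fibroblast markers summed to 3981 CPM in K566A and 1016 CPM in wild type, nearly all of it miR-143-3p. The 4 did not move together: miR-143-3p was at 3968 CPM in K566A and 995 CPM in wild type, while miR-145-5p was at 0.134 CPM in K566A and 13.6 CPM in wild type. miR-199a-3p was at 12.9 CPM in K566A and 8.03 CPM in wild type, and miR-214-3p was at or near 0 in all 7 libraries. The neuronal marker miR-124-3p was at 79.5 CPM in K566A and 13.1 CPM in wild type. The part of these shifts in the results below was not tested. Since CPM are shares, each result is also read against the median of all tested miRNAs or with another library size. In bulk libraries, fewer cells making a miRNA and less of it per cell cannot be told apart. Nor can less of a miRNA in the cells and less of it bound to Ago2, since no library of unselected small RNA was included.

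miR-149-5p was low in K566A and, less far, in PGKTP_AAAAA. It had 20.2 CPM in K566A, 405 CPM in Q548A, 369 CPM in R792A_C793A, 327 CPM in GKT_GKGT, 168 CPM in PGKTP_AAAAA, 429 CPM in wild type and 538 CPM in the empty control. Q548A, R792A_C793A and GKT_GKGT lay near wild type, while K566A lay far below every other library. In K566A it fell 21.2-fold against wild type (log2 ratio -4.40, 95% interval -4.57 to -4.24). The exact Poisson 95% interval of its level was 18.0 to 22.7 CPM in K566A and 425 to 434 CPM in wild type. Its log2 ratio was -1.35 (-1.40 to -1.31) in PGKTP_AAAAA, past a 2-fold fall, but -0.73 with median-of-ratios scaling, which no longer is.

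miR-328-3p, known from human leukaemia cells as a decoy for an RNA-binding protein, showed the same low point in K566A. Its levels were 109 CPM in K566A, 729 CPM in Q548A, 669 CPM in R792A_C793A, 997 CPM in GKT_GKGT, 666 CPM in PGKTP_AAAAA, 1389 CPM in wild type and 478 CPM in the empty control. Wild type was the highest of the 7 libraries and K566A the lowest. Against wild type it fell 12.8-fold in K566A (log2 ratio -3.68, interval -3.75 to -3.61). The other log2 ratios were -1.05 (-1.07 to -1.04) in R792A_C793A, -1.06 (-1.08 to -1.04) in PGKTP_AAAAA, -0.93 (-0.94 to -0.92) in Q548A and -0.48 (-0.49 to -0.46) in GKT_GKGT. The first 2 of these are past 2-fold by a small margin. The PGKTP_AAAAA value was -0.44 with median-of-ratios scaling and -0.81 without miR-292-5p in the total, neither past 2-fold. In Q548A it was -1.03 with median-of-ratios scaling, which is past 2-fold.

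miR-501-3p was lower in each mutant than in wild type, in unequal degree. It had 23.3 CPM in K566A, 208 CPM in Q548A, 121 CPM in R792A_C793A, 195 CPM in GKT_GKGT, 51.4 CPM in PGKTP_AAAAA, 285 CPM in wild type and 239 CPM in the empty control. The lowest libraries were K566A and PGKTP_AAAAA, and Q548A and GKT_GKGT were nearest to wild type. The fall was 12.3-fold in K566A (log2 ratio -3.61, interval -3.77 to -3.46, from 347 and 27057 counts). It was -2.47 (-2.55 to -2.39) on the log2 scale in PGKTP_AAAAA and -1.24 (-1.28 to -1.20) in R792A_C793A. The log2 ratios of -0.45 in Q548A and -0.55 in GKT_GKGT did not pass 2-fold.

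The arms of miR-296 went different ways. miR-296-5p had 752 CPM in K566A, 556 CPM in Q548A, 472 CPM in R792A_C793A, 92.3 CPM in GKT_GKGT, 108 CPM in PGKTP_AAAAA, 550 CPM in wild type and 657 CPM in the empty control. Of the 7 libraries, both loop mutants were low. Its log2 ratio was -2.58 (-2.62 to -2.53) in GKT_GKGT and -2.35 (-2.40 to -2.29) in PGKTP_AAAAA. In K566A it was 0.45 (0.42 to 0.48), which does not pass 2-fold and is 0.47 below the median of all tested miRNAs. That value turned to -0.39 with median-of-ratios scaling and to -0.66 without miR-292-5p in the total. Chosen among the losses, miR-296-5p thus fell in the loop mutants but was not called lower in K566A.

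miR-296-3p was the most abundant member. Its levels were 7864 CPM in K566A, 3941 CPM in Q548A, 4121 CPM in R792A_C793A, 12752 CPM in GKT_GKGT, 22266 CPM in PGKTP_AAAAA, 9109 CPM in wild type and 5887 CPM in the empty control. The loop mutants were above wild type, and the other 3 mutants below it. Past 2-fold were the falls in Q548A (log2 ratio -1.21, interval -1.21 to -1.20) and R792A_C793A (-1.14, -1.15 to -1.14) and the rise in PGKTP_AAAAA (1.29, 1.28 to 1.29). The log2 ratio was -0.21 in K566A and 0.49 in GKT_GKGT. In K566A it was -1.05 with median-of-ratios scaling and -1.32 without miR-292-5p in the total, both past 2-fold. As a loss, this arm was called in Q548A and R792A_C793A, and in PGKTP_AAAAA it went the other way.

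**Figure D1:**
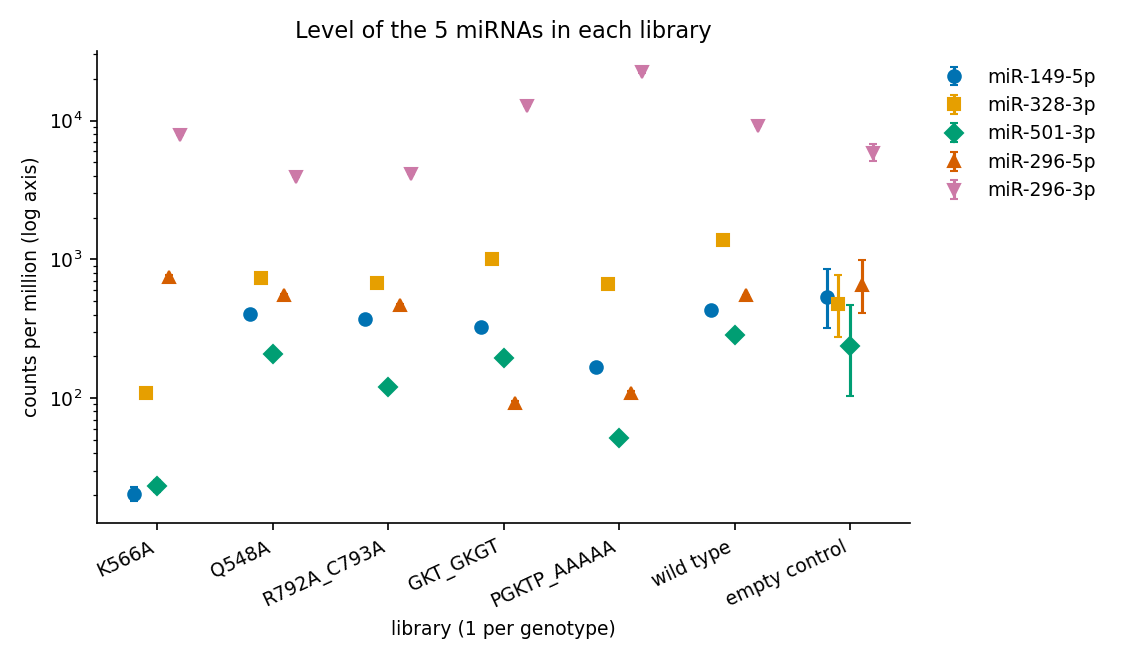
CPM (log axis) of the 5 miRNAs in the 5 mutants, wild type and the empty control, 1 library each; bars are exact Poisson 95% intervals, which cover counting error only. miR-149-5p (20.2 CPM), miR-328-3p (109 CPM) and miR-501-3p (23.3 CPM) are lowest in K566A, and miR-296-5p is lowest in GKT_GKGT (92.3 CPM).

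Read against all 337 tested miRNAs, 3 of 5 members were called lower in K566A, where 19.6% of tested miRNAs were called. A call means that the 95% interval of the ratio to wild type lay wholly below 0.5 or above 2. In Q548A 1 of 5 was lower against 4.45% of all, in R792A_C793A 3 of 5 against 6.82%, in GKT_GKGT 1 of 5 against 11.9% and in PGKTP_AAAAA 4 of 5 against 33.5%. The 1 member called higher in PGKTP_AAAAA, miR-296-3p, stands beside 7.12% of all. Since these contrasts chose the members, nothing is read from the counts. Counts and backgrounds moved with the library size. With median-of-ratios scaling 4 of 5 were lower in K566A against 31.5% of all, 2 of 5 in Q548A against 5.93%, 3 of 5 in R792A_C793A against 12.8%, 1 of 5 in GKT_GKGT against 8.31% and 2 of 5 in PGKTP_AAAAA against 16.9%. Without miR-292-5p in the total they were 4 of 5 in K566A against 34.4%, 1 of 5 in Q548A against 3.86%, 3 of 5 in R792A_C793A against 10.7%, 1 of 5 in GKT_GKGT against 7.12% and 3 of 5 in PGKTP_AAAAA against 25.8%. The member added in K566A under both was miR-296-3p. The median log2 ratio of the members was -3.61 in K566A against 0.92 for all tested, and -0.45 against 0.07 in Q548A. It was -1.05 against 0.43 in R792A_C793A, -0.48 against -0.29 in GKT_GKGT and -1.35 against -0.54 in PGKTP_AAAAA.

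**Figure D2:**
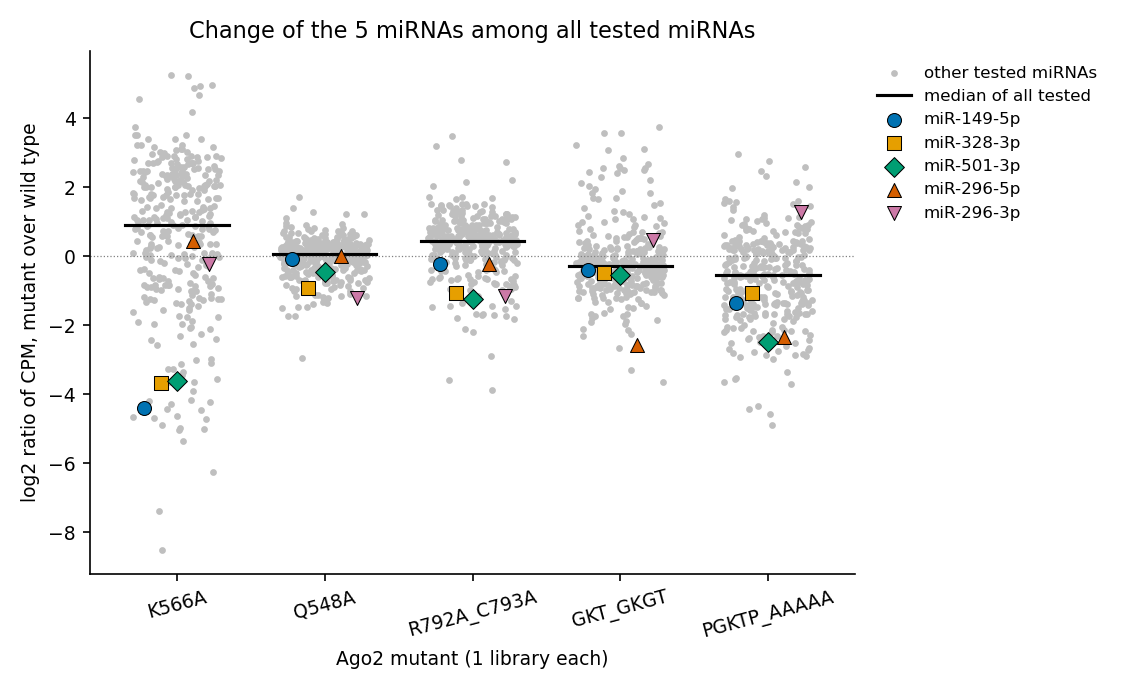
Log2 ratio of CPM, mutant over wild type, for 337 tested miRNAs in each of 5 mutants (1 library each); grey points are the other miRNAs, black lines the medians of all tested, and coloured symbols the 5 members. In K566A miR-501-3p, miR-328-3p and miR-149-5p lie between -4.40 and -3.61. There miR-296-5p lies at 0.45 and miR-296-3p at -0.21, both below the median of 0.92.

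By order among the 152 miRNAs of at least 100 CPM on average, miR-149-5p took place 3 from the lowest log2 ratio in K566A, miR-328-3p place 4 and miR-501-3p place 5. Just outside them were miR-323-3p of the Dlk1-Dio3 cluster, at -4.46, and miR-744-5p, at -3.28. miR-296-3p took place 48 and miR-296-5p place 60. Among all 337 tested miRNAs, which include less abundant ones, miR-149-5p took place 15, miR-328-3p place 22 and miR-501-3p place 25. In GKT_GKGT miR-296-5p took place 5 of the 337. In PGKTP_AAAAA miR-501-3p took place 25, miR-296-5p place 31, miR-149-5p place 96 and miR-328-3p place 120.

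The same K566A library was also set directly against the other mutants, and was low there in the first 3 members. The log2 ratio of miR-149-5p was -4.32 (-4.49 to -4.16) over Q548A, -4.19 (-4.36 to -4.03) over R792A_C793A, -4.01 (-4.18 to -3.85) over GKT_GKGT and -3.05 (-3.23 to -2.89) over PGKTP_AAAAA. That of miR-328-3p lay between -3.20 (over GKT_GKGT) and -2.62 (over PGKTP_AAAAA). All 8 of these values passed a 2-fold fall. For miR-501-3p the log2 ratio was -3.16 over Q548A, -2.37 over R792A_C793A and -3.07 over GKT_GKGT. Over PGKTP_AAAAA it was -1.14 (-1.32 to -0.97), not called because the interval does not lie wholly past 2-fold. It was called with median-of-ratios scaling (-2.61) and without miR-292-5p in the total (-2.50). miR-296-5p was 8.14-fold higher in K566A than in GKT_GKGT and 6.94-fold higher than in PGKTP_AAAAA. On the log2 scale these are 3.03 and 2.80. They were 2.005 over GKT_GKGT and 1.33 over PGKTP_AAAAA with median-of-ratios scaling, and 1.62 and 1.43 without miR-292-5p in the total, still past 2-fold but smaller. miR-296-3p was 2.83-fold lower in K566A than in PGKTP_AAAAA, a log2 ratio of -1.50, which was -2.96 with median-of-ratios scaling and -2.86 without miR-292-5p in the total. Over GKT_GKGT it was -0.70, not past 2-fold, but -1.72 and -2.11 in the same settings, both called. With the total as library size, 3 of the 5 members, not always the same ones, were lower in K566A in each of the 4 comparisons, where 19.6% of all tested miRNAs were lower against Q548A, 21.4% against R792A_C793A, 22.6% against GKT_GKGT and 13.4% against PGKTP_AAAAA. The rise of miR-296-5p stands beside 50.1% of all tested miRNAs that were higher against GKT_GKGT and 58.5% against PGKTP_AAAAA. These comparisons share the K566A library, by whose falls members were chosen, so nothing is read from the counts.

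With the total as library size, miR-501-3p was the member that differed most between the loop mutants. Its log2 ratio of PGKTP_AAAAA over GKT_GKGT was -1.93 (-2.01 to -1.84), against a median of -0.32 for all tested miRNAs. It was the only member of 5 past 2-fold, where 25.5% of all tested miRNAs were lower. miR-149-5p was at -0.96, miR-328-3p at -0.58, miR-296-5p at 0.23 and miR-296-3p at 0.80 in that comparison. It was not recomputed with another library size, so the calls hold for the total only. With median-of-ratios scaling the log2 ratio of miR-296-3p to wild type was 1.91 in PGKTP_AAAAA and 0.67 in GKT_GKGT.

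Arm balance within a hairpin does not depend on library size. In the miR-296 hairpin, printed here with both mature arms in capitals (RefSeq, minus strand of chromosome 2), the 5p arm begins with A and the 3p arm with G.
Mir296 hairpin: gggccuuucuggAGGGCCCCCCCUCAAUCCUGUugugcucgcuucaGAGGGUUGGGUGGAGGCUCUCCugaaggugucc

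The 3p arm was the major arm of miR-296 in all 7 libraries. Of the hairpin's counts the 5p arm took 0.484% in PGKTP_AAAAA and 0.719% in GKT_GKGT. It took 8.72% in K566A, 10.3% in R792A_C793A and 12.4% in Q548A, against 5.70% in wild type. The share was thus higher than in wild type in 3 mutants and far lower in both loop mutants. In the empty control it was 10.05% (Wilson 95% interval 6.73 to 14.7, from 22 and 197 counts). The log2 odds of 5p over 3p changed by -3.06 (-3.10 to -3.02) in GKT_GKGT and by -3.63 (-3.69 to -3.58) in PGKTP_AAAAA. They changed by 1.22 (1.21 to 1.24) in Q548A, also past 2-fold. The changes of 0.92 in R792A_C793A and 0.66 in K566A were not. In this hairpin the A-first arm thus fell in share in both loop mutants, and a part of the first base in this was not tested.

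**Figure D3:**
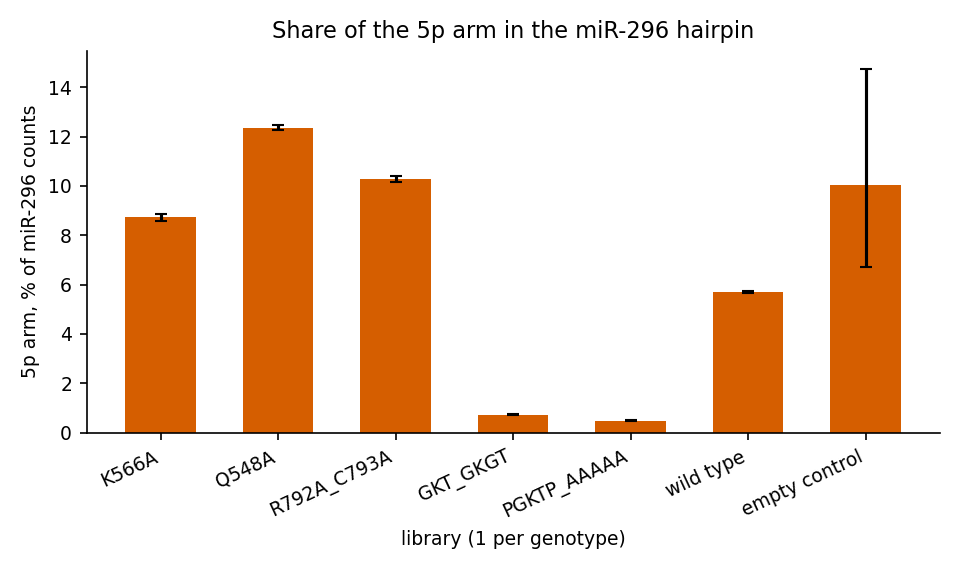
Share of the 5p arm in all counts of the miR-296 hairpin, in percent, by library (1 per genotype); bars start at 0 and error bars are Wilson 95% intervals. The share is 0.719% in GKT_GKGT and 0.484% in PGKTP_AAAAA, against 5.70% in wild type.

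In the other 3 hairpins the member was the major arm in each library, with at least 99.0% of the hairpin's counts in the 6 Ago2 libraries. The partner arm was near the limit of detection in K566A: miR-149-3p had 0 counts in K566A and 18 in wild type, miR-501-5p had 3 in K566A and 62 in wild type, and miR-328-5p had 11 in K566A. A count of 0 in K566A allows up to 0.201 CPM. miR-328-5p was at 0.738 CPM in K566A and 1.29 CPM in wild type, and the log2 odds of miR-328-3p over it changed by -2.93 (-3.77 to -1.83) in K566A. For miR-501 the change in log2 odds of 3p over 5p was -2.11 (-2.63 to -1.59) in R792A_C793A and -2.12 (-3.54 to 0.41) in K566A, where the interval includes 0. For miR-149 in K566A the interval, from -4.95 upward, has no upper bound.

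A list of 12 miRNAs, both arms of miR-501 included, was fixed as the Clcn5 cluster. Of its genes, those of miR-500, miR-501 and miR-532 were read as lying in an intron of Clcn5. Of the 12 miRNAs 10 were in the table, all within 10 kb of miR-501-3p, and 3 passed the limit of 10 CPM. These 3 moved apart in K566A. miR-532-5p had 4803 CPM in K566A, 1492 CPM in Q548A, 2307 CPM in R792A_C793A, 1031 CPM in GKT_GKGT, 1248 CPM in PGKTP_AAAAA, 1172 CPM in wild type and 2092 CPM in the empty control. It was thus highest in the library in which miR-501-3p was lowest. Its log2 ratio in K566A was 2.03 (2.02 to 2.05), or 1.20 with median-of-ratios scaling and 0.93 without miR-292-5p in the total, the last of which is not past 2-fold. miR-362-5p was at 36.6 CPM in K566A and 7.11 CPM in wild type (log2 ratio 2.37, 2.20 to 2.53), and at 19.0 CPM in R792A_C793A (1.42, 1.28 to 1.56). In K566A the log2 ratio of miR-362-5p was 1.53 with median-of-ratios scaling and 1.26 without miR-292-5p in the total, past 2-fold in both. In R792A_C793A it was 1.05 with median-of-ratios scaling, and the call was lost. In the other direction, miR-188-5p had 5 counts in K566A and 499 in wild type (-3.84, -5.60 to -2.74), below the 10 CPM limit in the mean. Beyond K566A its log2 ratio lay between -0.28 and 0.63. Of the tested miRNAs of this cluster in K566A, 1 of 3 was lower and 2 of 3 higher, beside 19.6% and 47.5% of all. The lower one was miR-501-3p, itself chosen for its fall, and the higher ones were miR-532-5p and miR-362-5p.

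Seeds could be compared for the 751 miRNAs of the table with a RefSeq sequence, which leaves out miR-328-3p. Among them, miR-500-3p was the 1 that shared a seed with any of the 4 members shown, that of miR-501-3p. Its sequence, and that of miR-362-5p from the same cluster, which has another seed, are shown for comparison with miR-501-3p.
miR-500-3p: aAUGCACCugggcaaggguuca
miR-362-5p: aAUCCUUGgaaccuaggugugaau

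miR-500-3p was rare, with 4 counts in K566A (0.268 CPM) and 106 in wild type (1.12 CPM), a log2 ratio of -1.90 (-3.96 to -0.66). miR-532-3p was at 3.22 CPM in K566A and 6.16 CPM in wild type (-0.92, -1.39 to -0.51). Neither passed 2-fold. miR-362-3p had 11 counts in K566A and 25 in wild type, miR-188-3p had 0 and 10, and miR-500-5p had 0 and 3.

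miR-298-5p, encoded beside miR-296 at chr2:174093054-174093076, had a profile nearest to that of miR-501-3p, by the measure given below. Its sequence begins with G.
miR-298-5p: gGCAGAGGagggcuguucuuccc

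miR-298-5p had 649 CPM in K566A, 4383 CPM in Q548A, 2831 CPM in R792A_C793A, 4901 CPM in GKT_GKGT, 1452 CPM in PGKTP_AAAAA, 5572 CPM in wild type and 4841 CPM in the empty control. K566A was the lowest library and PGKTP_AAAAA the next. It fell 8.59-fold in K566A (log2 ratio -3.10, -3.13 to -3.07), where miR-296-5p was at 0.45 and miR-296-3p at -0.21. In PGKTP_AAAAA its log2 ratio was -1.94 (-1.96 to -1.93), and in R792A_C793A -0.98, which does not pass 2-fold. That last value was -1.34 with median-of-ratios scaling and -1.21 without miR-292-5p in the total, both past 2-fold. In the same settings the K566A value was -3.94 and -4.21, and the PGKTP_AAAAA value -1.32 and -1.69. Its partner miR-298-3p, with 51 counts in K566A and 341 in wild type, was at -0.06 (-0.53 to 0.36) in K566A.

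**Figure D4:**
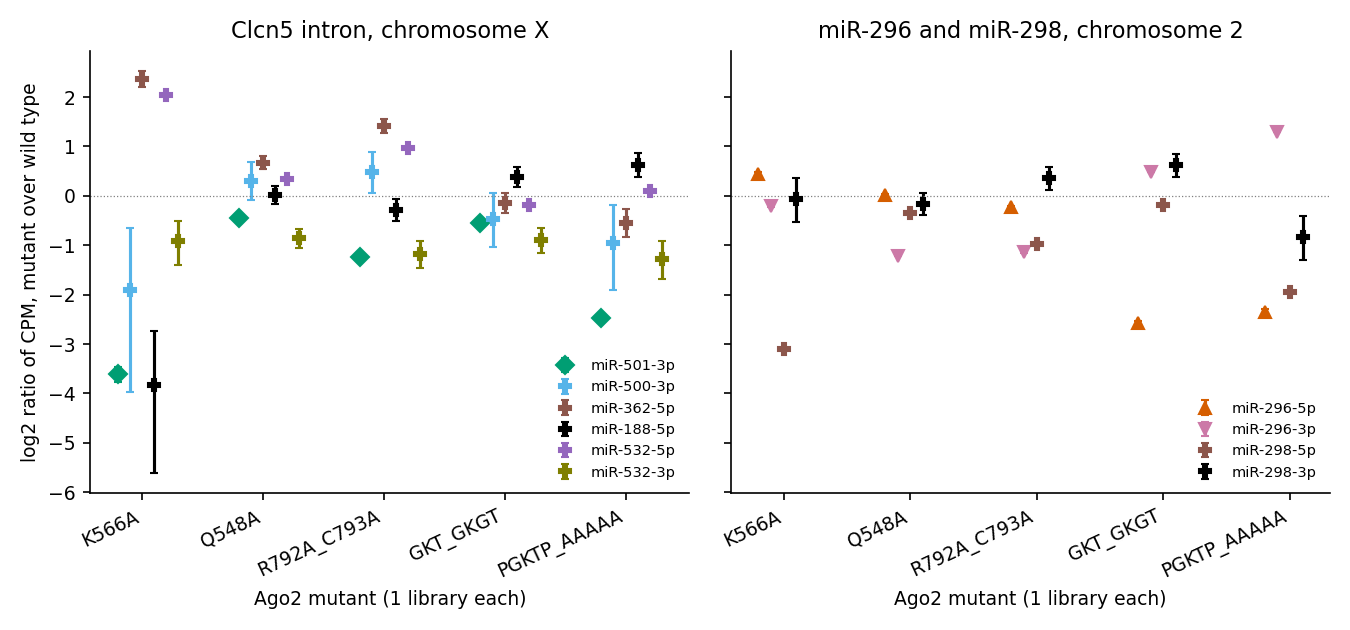
Log2 ratio of CPM, mutant over wild type, with 95% counting intervals, for miRNAs of the Clcn5 cluster (left) and for miR-296 and miR-298 (right) in 5 mutants (1 library each). In K566A miR-501-3p (-3.61) lies far below miR-532-5p (2.03), and miR-298-5p (-3.10) below both miR-296 arms.

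GC content and first base were not used to choose the members. In K566A the 101 tested miRNAs with at least the 54.5% GC of miR-501-3p had a median log2 ratio of -0.21, and the 176 below that limit one of 1.27. Without the 4 members with a sequence, the median of the GC-rich miRNAs was -0.13 over 97, with 32 called lower and 28 higher. The classes by first base keep the members, which were chosen for their falls. Among miRNAs that begin with U, as miR-149-5p does, the 33 GC-rich ones had a median of -0.80 with 15 lower, miR-149-5p included, and 10 higher. The 92 other U-first miRNAs had a median of 1.81, with 13 lower and 58 higher. A-first miRNAs, the class of miR-501-3p and miR-296-5p, showed no such split. Their median was 0.45 for the 28 GC-rich ones (6 lower, miR-501-3p included, 8 higher) and 0.29 for the 44 others (8 lower, 17 higher). For GC-rich and other miRNAs the medians were 0.26 and 1.43 among C-first ones, and -0.96 and 0.05 among G-first ones. miR-149-5p took place 4 from the lowest of the 125 U-first miRNAs in K566A, and miR-501-3p place 6 of the 72 A-first ones. Against Q548A in place of wild type, the K566A medians of U-first miRNAs were -0.75 for GC-rich and 1.57 for the others. Those of A-first miRNAs were 0.72 and 0.40.

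The medians by GC lay closer in the other mutants, with -0.24 for GC-rich and 0.15 for other miRNAs in Q548A and -0.08 and 0.52 in R792A_C793A. In the loop mutants they were -0.15 and -0.36 (GKT_GKGT) and -0.74 and -0.56 (PGKTP_AAAAA). Across the 277 miRNAs, which share both libraries of each ratio, Spearman's rho of GC content with the log2 ratio was -0.46 in Q548A, -0.29 in R792A_C793A and -0.26 in K566A (Pearson's r -0.42, -0.31 and -0.27). In the loop mutants rho was 0.18 for GKT_GKGT and -0.015 for PGKTP_AAAAA (Pearson's r 0.14 and -0.03). Among the 101 GC-rich miRNAs in K566A, miR-149-5p took place 8 from the lowest log2 ratio and miR-501-3p place 15. Both arms of miR-296 have more GC than miR-149-5p, and neither passed 2-fold in K566A with the total as library size. In the same list miR-296-3p took place 51, at the list's median of -0.21, and miR-296-5p place 63. A part of GC content in these values was not tested. By first base, miR-296-5p took place 4 of the 72 A-first miRNAs in GKT_GKGT, where the A-first median was -0.61. miR-296-3p took the highest place of the 27 G-first miRNAs in PGKTP_AAAAA, with 1.29 against a G-first median of -1.65. In that mutant 19 of the 27 were called lower and miR-296-3p was the 1 called higher. The A-first median in PGKTP_AAAAA was -1.37, with 41 of 72 called lower and 3 higher.

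**Figure D5:**
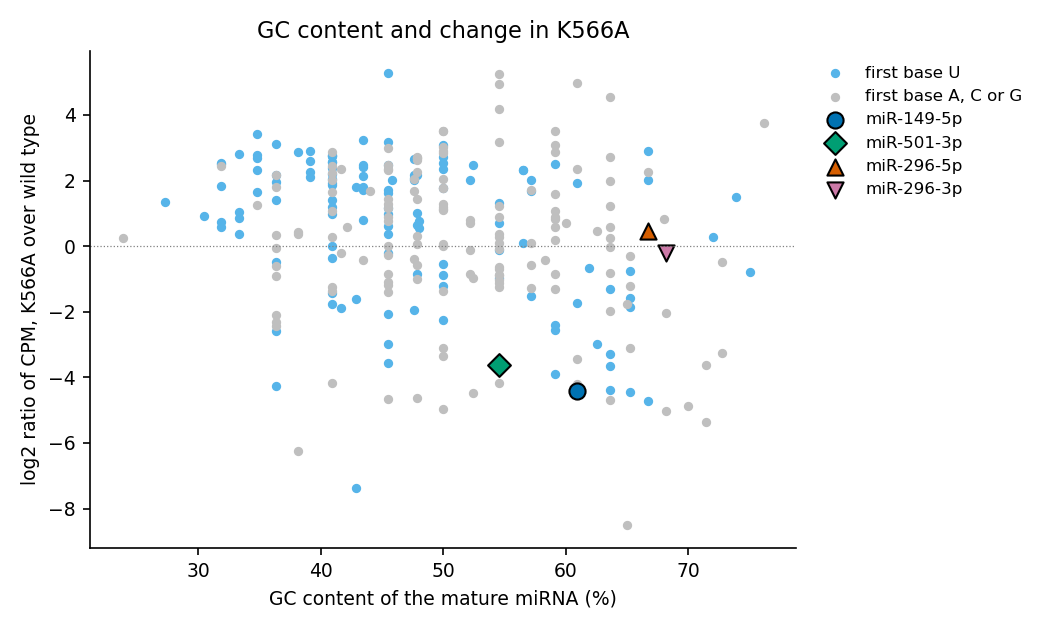
GC content of the mature sequence (percent) and log2 ratio of CPM, K566A over wild type, for 277 tested miRNAs with a RefSeq sequence, 1 library per genotype; blue points begin with U, grey points with A, C or G, and large symbols are the 4 members with a sequence. miR-149-5p (60.9% GC) and miR-501-3p (54.5%) lie at -4.40 and -3.61. miR-296-5p (66.7%) and miR-296-3p (68.2%) lie at 0.45 and -0.21, below the median of 0.92 for all tested miRNAs.

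The miRNAs most like each member were found by the root mean square difference of log2(CPM + 0.5), centred on each miRNA's own mean over the 6 Ago2 libraries. Nearest to miR-149-5p were miR-615-3p (0.20), miR-3057-5p (0.31) and miR-324-5p (0.49). miR-615-3p had 5.30 CPM in K566A, 37.2 CPM in PGKTP_AAAAA and 112 CPM in wild type, and begins with U at 63.6% GC. For miR-328-3p they were miR-134-5p (0.38), miR-615-3p (0.41) and miR-324-5p (0.42). miR-134-5p, of the Dlk1-Dio3 cluster, had 514 CPM in K566A and 3001 CPM in wild type. miR-501-3p was nearest to miR-298-5p (0.19), then to miR-382-5p (0.29) and miR-505-5p (0.37).

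miR-296-5p was nearest to miR-151-5p (0.35), miR-17-3p (0.49) and let-7d-5p (0.50), and the last of these had 26.5 CPM in GKT_GKGT and 92.1 CPM in wild type. Nearest to miR-296-3p, at larger distances, were miR-127-5p at 0.52, miR-378-5p at 0.52 and miR-92b-5p at 0.54. Between members the same measure was 0.56 for miR-149-5p and miR-328-3p, 0.58 for miR-328-3p and miR-501-3p and 0.64 for miR-149-5p and miR-501-3p. Each pair with a miR-296 arm lay between 1.39 and 2.18, the pair of both arms at 1.95. Members were left out of the search for the nearest miRNAs. The 3 found for each of the first 3 members lay nearer than any other member did. All these distances use the libraries by which the members were chosen, so nothing is read from them.

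Wild type held 40721 counts of miR-149-5p, 131740 of miR-328-3p, 27057 of miR-501-3p, 52183 of miR-296-5p and 863961 of miR-296-3p. The empty control held 18, 16, 8, 22 and 197 counts in the same order. By CPM, none of the 5 passed 2-fold between wild type and the empty control, where 0.593% of all tested miRNAs were called higher and 2.08% lower. miR-328-3p was 2.90-fold higher in wild type, but its log2 interval of 0.84 to 2.35 reaches below 2-fold. The other 4 log2 ratios lay between -0.36 and 0.63. How much material went into each library is not stated, so counts bound without Ago2 cannot be scaled to the other libraries.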

How the data were processed

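RNA collected with Flag-tagged Ago2 was made into NEBNext Small RNA libraries and read on an Illumina HiSeq, per the labels' protocols. The authors deposited raw counts for 1078 miRNA loci, and CASAVA 1.8.2, TopHat2 2.0.9 and build mm9 are named in the submitters' processing notes. How reads were counted, with or without strand, and what became of multiply matching reads is not stated. A mature name listed at several loci entered with its highest locus, and 9 names that matched another in all libraries within 1% or 3 counts (sum from 200 upward) were dropped. CPM used the total of the remaining 950 miRNAs. Depth was 14914048 to 94842507 counts in the Ago2 libraries and 33461 in the empty control, where 0 counts allow up to 89.7 CPM (3 counts). Log2 ratios carry a pseudocount of 0.5 and exact conditional 95% intervals. Arm ratios carry exact conditional intervals, or Woolf's for miR-296, and shares Wilson's. Without molecular identifiers, these intervals cover counting error only.

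No p-value was computed, for want of replicates. Python 3.11.15 with scipy 1.17.1 was used. The calls were checked on simulated counts that carry counting error only, so the check does not cover differences between libraries. GC content and first base came from RefSeq for 277 of 337 tested miRNAs, matched by name. Alternatives were median-of-ratios and miR-292-5p-free library sizes, fold limits of 1.5 and 4, other filters, uncollapsed rows and a pseudocount of 5. The members, the lists and the rules for named miRNAs (partner arms, host-locus neighbours, 3 nearest profiles, neighbours in the K566A order) were chosen with earlier results of these data known.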

Additional observations from a re-analysis of the deposited data

How the results depend on the processing

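No paired analysis was possible because each genotype has 1 library, and no library could be left out. Of 60 recomputed counts of calls and miR-296 arm balances, 30 stayed within 1.5 times of the first value or kept direction and call. In K566A the falls of miR-501-3p, miR-328-3p and miR-149-5p kept direction and call under both other library sizes and a pseudocount of 5 (log2 ratios of -5.51 to -3.60), as did the miR-296 arm balances in the 5 mutants with a pseudocount of 5.

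Members called lower were 2 of 5 in Q548A, against 5.93% of all, and 2 of 5 in PGKTP_AAAAA, against 16.9%, with median-of-ratios scaling. They were 2 in Q548A with a fold limit of 1.5, against 13.1% of all tested miRNAs. With a limit of 4 they were 0 in Q548A against 0.297% of all, 0 in R792A_C793A against 1.48% and 2 in PGKTP_AAAAA against 12.2%.

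All miRNAs called lower moved as follows. With median-of-ratios scaling they were 106 in K566A, 43 in R792A_C793A and 57 in PGKTP_AAAAA. Without miR-292-5p in the total they were 116 in K566A, 36 in R792A_C793A and 24 in GKT_GKGT. A fold limit of 1.5 gave 44 in Q548A, 49 in R792A_C793A and 92 in GKT_GKGT. A limit of 4 gave 9 in GKT_GKGT, 41 in PGKTP_AAAAA, 42 in K566A, 1 in Q548A and 5 in R792A_C793A. With no filter, over 838 miRNAs, they were 72 in GKT_GKGT, 198 in PGKTP_AAAAA, 115 in K566A, 31 in Q548A and 39 in R792A_C793A. Among the 152 of at least 100 CPM they were 18, 42, 32, 5 and 9 in the same order.

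Directions that reversed were all of log2 ratios that had not passed 2-fold. For miR-296-5p, median-of-ratios scaling gave -0.39 in K566A, -0.083 in Q548A and -0.31 for K566A over Q548A. Without miR-292-5p in the total it was at -0.66 in K566A, -0.74 for K566A over Q548A and -0.20 for K566A over R792A_C793A. In that setting miR-296-3p was at -0.18 for K566A over Q548A, and in GKT_GKGT miR-362-5p was at 0.16, miR-532-5p at 0.12 and miR-298-5p at 0.11. Median-of-ratios scaling put miR-362-5p at 0.037 in GKT_GKGT and 0.079 in PGKTP_AAAAA. These settings change the library size: against wild type, K566A becomes larger by 0.84 (median-of-ratios) or 1.11 (without miR-292-5p) on the log2 scale. In the empty control, depth limits detection to about 89.7 CPM.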
